A study of Mus musculus with 8 samples.

Results

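Cyp4a31, Cyp4a32 and Acaa1b are 3 mouse genes of fatty acid oxidation, each read by 1 probe among the 90752 transcript probes of the array (MOUSELNCRNA_47834 for Cyp4a31, MOUSELNCRNA_53633 for Cyp4a32 and MOUSELNCRNA_1400 for Acaa1b). They were measured in the ileum of male C57BL/6 mice, 4 after duodenal–jejunal bypass (DJB) and 4 after sham surgery, with 1 one-colour Agilent array per mouse. All 8 mice were labelled diabetic. They had eaten a high-fat diet from 6 weeks of age, were operated on after 12 weeks of it and gave tissue 2 weeks later, at 20 weeks of age. In the DJB group the bowel was rerouted with a biliopancreatic limb of 5 cm and a Roux limb of 4 cm, while the sham group had anaesthesia and an opened abdomen with no cut or rerouting of the bowel. The labels give the ileum as the tissue, although their text on RNA extraction speaks of the duodenum, and the probes carry no gene names that would let tissue markers be read.

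The 3 genes were chosen because they stood in the list of the mRNAs with the largest rise between these same 8 samples. In the authors' table of log2 values the DJB mean was 14.8 times the sham mean for Cyp4a31, 14.2 times for Cyp4a32 and 11.2 times for Acaa1b, as ratios of linear means. These were places 7, 9 and 10 among the 10 listed mRNAs. Over all 90752 probes, with no filter on dim signals or p, the ratios ranked 35, 40 and 72. The first probe ranked below Acaa1b had a ratio of 10.9. The difference between DJB and sham is therefore given below as a description of the mice, with no test. A ratio of linear means is raised by a single high DJB mouse, so the spread within a group is given as a description too. The ratio of a gene does not depend on which mouse of a group holds which value, and whether the genes followed the same mice was tested.

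CYP4A enzymes are cytochrome P450 omega-hydroxylases. They oxidize the methyl end of a fatty acid, which opens the way to dicarboxylic acids, and dicarboxylic and very long-chain acids are then shortened by beta-oxidation in the peroxisome. Acaa1b encodes a peroxisomal 3-ketoacyl-CoA thiolase, the enzyme of the last step of each such round, in which acetyl-CoA is cut off. Genes of both kinds are textbook targets of the nuclear receptor PPARα, which is bound by fatty acids and is active in liver and small intestine. In RefSeq's gene order (GRCm38.p6), Cyp4a31 and Cyp4a32 lie next to each other on chromosome 4, between Cyp4a10 and Cyp4b1, while Acaa1b lies on chromosome 9 between Dlec1 and Slc22a14.

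The probes are 60 bases long, and each was compared only with other probes of the array. Whether a probe also binds RNA of related genes was not tested, for Cyp4a32 and Acaa1b as for Cyp4a31. A signal may thus not be specific to the gene it is named after. The search compared, without gaps, only probes that shared a run of 10 identical bases, so that other matches could be missed. To show what each signal was read from, the first 30 bases of the Cyp4a32 and Acaa1b probes are given here. They hold no capitals because this search found no other probe matching them over at least 25 bases at 80% identity. The Cyp4a31 probe did have such a match, the unnamed probe MOUSELNCRNA_66677. Bases 31 to 60 of the Cyp4a31 probe are therefore set against bases 18 to 47 of that probe, with the bases that differ in capitals.
Cyp4a32: actaagtcccttttgaattatgaggaatta
Acaa1b: ttctctcggtcgaaccaaagacagtgcatg
Cyp4a31: ccctcctttctgcaataaagGtccAagtgt
MOUSELNCRNA_66677: ccctcctttctgcaataaagTtccCagtgt

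Over the whole overlap of 47 bases, the Cyp4a31 probe and MOUSELNCRNA_66677 held 44 identical bases, 34 of them in an unbroken run. RNA of 1 of these sequences may thus bind the other probe, and their signals cannot be taken as separate readings. The Cyp4a31 probe also holds AATAAA, the letters of the common polyadenylation signal, from its base 44. These letters occurred in 14.7% of all transcript probes.

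RefSeq promoter windows (GRCm38.p6, from 250 bases before to 50 after the start of the gene) were searched for AGGTCA, the core hexamer bound by many nuclear receptors, on both strands, since PPARα binds a direct repeat of it with 1 base in between. Neither the Cyp4a32 nor the Acaa1b window held AGGTCA exactly, which is the common case, as only 16.3% of 32851 promoters held it. No promoter window was available for Cyp4a31. The stretches nearest to the direct repeat are given below, with the 12 bases compared in capitals and the spacer in lower case.
Cyp4a32, chr4:115600841-115600853, minus strand: ATCTCAtAGTTCA
Acaa1b, chr9:119157264-119157276, plus strand: AAGTTCaAGGCCA
The Cyp4a32 stretch differed from the repeat at 3 of the 12 bases, as few as in 24.6% of all promoters. The Acaa1b stretch differed at 4, as few as in 79.8%. These are matches of letters in a short window only.

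All values below are relative log2 signals, that is log2 of the background-subtracted intensity, averaged over both spots of a probe, minus the 75th percentile of the same array, so that 0 is the 75th percentile. Before this scaling, the 75th percentile was 413 to 440 intensity units on the sham arrays and 342 to 349 on the DJB arrays, and 71.5% to 74.6% of probes per array were well above background. Each group had a slide of its own, so that an effect of the slide and one of the surgery cannot be told apart. Between DJB and sham, 830 of 64412 tested probes (1.29%) were higher and 1484 lower at a fold of at least 2 and an adjusted p under 0.05 in limma. Without scaling there were 399 and 3257, so that the share of lower probes went from 64.1% to 89.1%. In whole tissue, a change in the number of cells of a type and a change in RNA per cell cannot be told apart. This holds for lower and for higher signals, and for differences between mice of the same group.

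Both omega-hydroxylases and the thiolase were higher in every DJB mouse than in any sham mouse. The difference between group means on the log2 scale was 11.2-fold for Cyp4a31 and 12.6-fold for Acaa1b. For Cyp4a32 it was 13.5-fold, against a sham signal that was well above background on 2 of 4 arrays, and 2.64-fold with another background correction. For 22.1% of all tested probes, too, the DJB values lay wholly above the sham values, and since the 3 genes were chosen by this contrast nothing is read from their share of 3 in 3. The genes differed in how the mice were spread. Cyp4a31 was wider among DJB mice than among sham mice, and Cyp4a32 was wide in both groups. Acaa1b was wider among sham mice, where mouse 2 alone lay far below the others.

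Cyp4a31 had relative log2 signals of -0.51, 0.05, 0.15 and -0.17 in sham mice 1 to 4. In DJB mice 1 to 4 the signals were 2.62, 2.0, 4.97 and 3.83. DJB mice 3 and 4 were thus the highest, and the lowest DJB mouse was 1.85 above the highest sham mouse. The group means were -0.12 ± 0.29 (SD, n = 4) for sham and 3.36 ± 1.32 (SD, n = 4) for DJB, a difference of 3.48 (SE 0.67) or 11.2-fold. Against the sham mean, the single DJB mice were 6.70-, 4.36-, 34.1- and 15.5-fold higher, so that DJB mouse 3 had 7.83 times the signal of DJB mouse 2. An SD as large as that of the DJB mice was reached by 0.106% of the 61082 probes with a signal well above background on all 8 arrays. Among sham mice an SD as large was reached by 9.87% of them. The median SD of these probes was 0.12 in sham and 0.14 in DJB mice.

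Cyp4a32 was the dimmest of the 3 probes, with relative log2 signals of -6.72, -6.96, -4.36 and -4.88 in sham mice 1 to 4. The signals in DJB mice 1 to 4 were -2.91, -3.20, -0.08 and -1.71. Sham mice 3 and 4 were higher than sham mice 1 and 2, and again DJB mice 3 and 4 were the highest of their group, with a gap of 1.16 between the lowest DJB and the highest sham mouse. The means were -5.73 ± 1.30 (SD, n = 4) and -1.98 ± 1.42 (SD, n = 4), a difference of 3.75 (SE 0.96) or 13.5-fold. This fold rests on sham signals near the background. The probe was well above background on 2 of 4 sham arrays, on both spots of sham mouse 3 and on 1 spot of sham mouse 4, and on all 4 DJB arrays. With another background correction (normexp), which adds a constant to every spot, the difference was 1.40 on the log2 scale, or 2.64-fold. An SD as large as in its own group was reached by 0.106% of the 61082 probes in sham and by 0.0769% in DJB mice, but the sham SD includes the 2 mice whose signal was not well above background.

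Acaa1b had relative log2 signals of 2.76, 1.21, 3.45 and 3.24 in sham mice 1 to 4. In DJB mice 1 to 4 they were 6.06, 5.74, 7.13 and 6.37. Sham mouse 2 stood lowest, and the wider spread among sham mice rests on it, as the others lay between 2.76 and 3.45. The gap of 2.28 between the groups was the widest of the 3 genes. The means were 2.67 ± 1.01 (SD, n = 4) and 6.33 ± 0.59 (SD, n = 4), a difference of 3.66 (SE 0.59) or 12.6-fold. The highest sham mouse had 4.73 times the signal of the lowest, and the highest DJB mouse 2.62 times that of the lowest. An SD as large was reached by 0.250% of the 61082 probes in sham mice and by 1.70% in DJB mice.

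**Figure D1:**
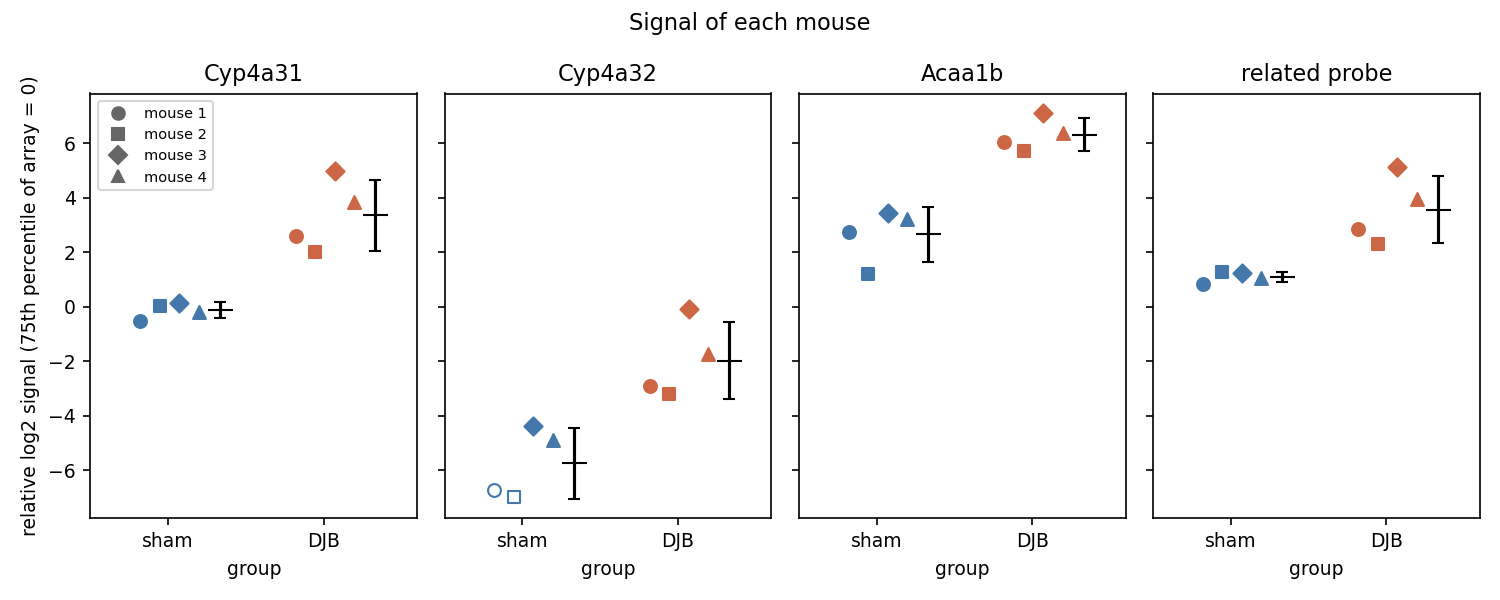
Relative log2 signal (y axis, 0 is the 75th percentile of the array) of each sham and DJB mouse (x axis) for Cyp4a31, Cyp4a32, Acaa1b and the related probe MOUSELNCRNA_66677. Each symbol is 1 mouse, open where no spot was well above background, and the bar gives the mean and SD of 4 mice. In each panel the 4 DJB mice lie above the 4 sham mice, and DJB mouse 3 is the highest. Levels should be compared within a panel, not between panels.

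Both spots of each probe gave the same picture. For Cyp4a31 the intensity ran from 278 to 469 units over the spots of the sham mice and from 1272 to 11568 over those of the DJB mice. For Acaa1b it ran from 970 to 4667 in sham and from 18257 to 48771 in DJB mice, with no spot saturated. Both probes were well above background on both spots of all 8 arrays. Cyp4a32 ran, after background subtraction, from 2.68 to 22.3 units in sham and from 37.1 to 341 in DJB mice, beside a local background of 18 to 25 units. Of its spots, 3 of 8 in sham and all 8 in DJB mice were well above background. Every sham spot of Cyp4a32 was dimmer than its own local background. No spot of the 3 probes was flagged as an outlier.

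On the log2 scale the spots of Cyp4a31 differed by 0.003 to 0.13 in sham mice and by 0.12 to 0.24 in DJB mice. Those of Acaa1b differed by 0.04 to 0.14 in sham mice and by 0.001 to 0.06 in DJB mice. The median was 0.12 over the 57540 probes compared, all of them well above background on the 8 arrays, which Cyp4a32 was not. The spots of Cyp4a32 differed by 0.03 to 0.15 in DJB mice and by 0.25 to 0.70 in sham mice, where the signal was dimmest. In each gene these differences were smaller than the gap between the groups. Taken from 1 spot alone, the Cyp4a32 difference was 3.84 and 3.67 on the log2 scale for the first and second spot.

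**Figure D2:**
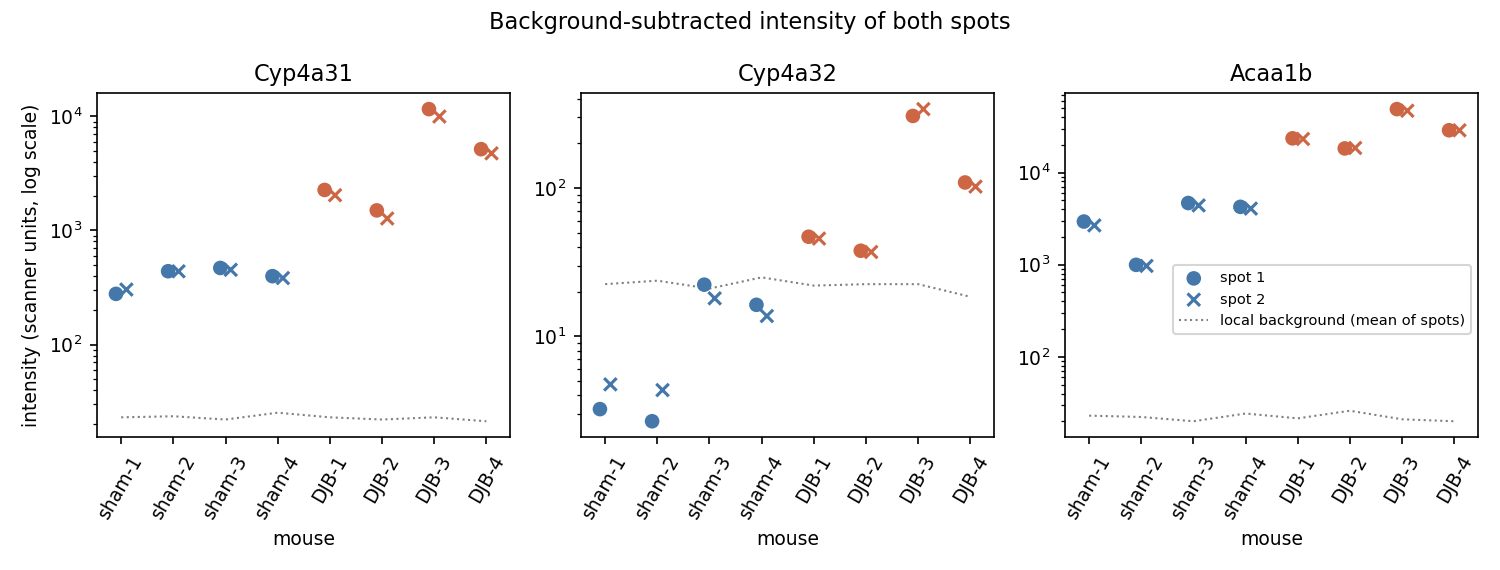
Background-subtracted intensity (y axis, scanner units, log scale, a separate range in each panel) of the first spot (circles) and the second spot (crosses) of each probe in each mouse (x axis), with sham in blue and DJB in orange. The dotted line is the local background, averaged over both spots. Cyp4a32 lies below or close to that line in all 4 sham mice, at 2.68 to 22.3 units, and below it at 2.68 to 4.75 units in sham mice 1 and 2, while Cyp4a31 and Acaa1b lie far above it in every mouse.

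The probe that shares bases with Cyp4a31, MOUSELNCRNA_66677, had relative log2 signals of 0.86, 1.27, 1.24 and 1.08 in sham mice 1 to 4. In DJB mice 1 to 4 the signals were 2.88, 2.32, 5.13 and 3.98. Its difference was 2.47 (SE 0.63) or 5.52-fold, smaller than the 3.48 of the Cyp4a31 probe. Its mice followed those of the Cyp4a31 probe closely: in no mouse did the deviations from the group mean differ by more than 0.15 between these probes. Whether the same RNA was read by both was not tested, and this signal is no independent support for Cyp4a31.

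Whether the genes vary together was asked by taking each mouse's deviation from the mean of its own group. Among DJB mice all 3 genes had the same order, with mouse 3 highest, then mice 4, 1 and 2. This order was held by 5.70% of those 61082 probes, and DJB mouse 3 was the highest of its group in 25.7% of them. Among sham mice, Cyp4a32 and Acaa1b both had the order of mice 3, 4, 1 and 2, held by 4.52% of probes, although the lower 2 Cyp4a32 values were not well above background. Cyp4a31 had another order there, mice 3, 2, 4 and 1, within a range of 0.66 on the log2 scale.

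**Figure D3:**
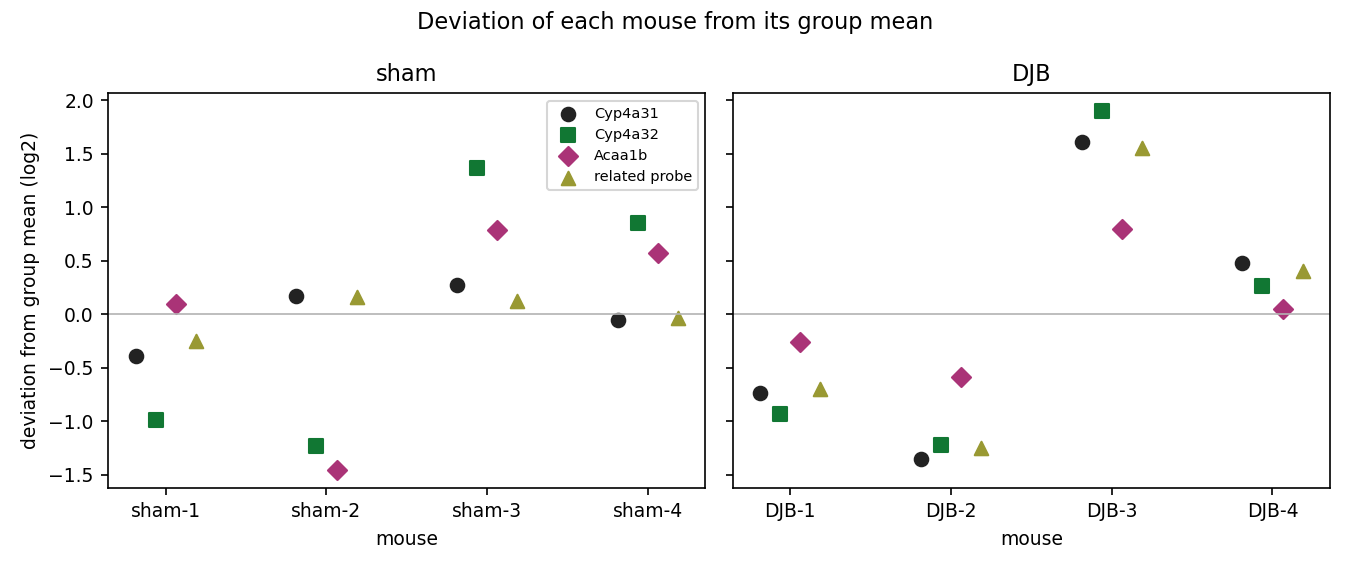
Deviation of the relative log2 signal from the group mean (y axis) for each sham mouse (left) and DJB mouse (right), with 1 symbol per probe. DJB mouse 3 lies highest for every probe and DJB mouse 2 lowest, while in sham mouse 2 the Cyp4a31 deviation is 0.17, that of Cyp4a32 is -1.23 and that of Acaa1b is -1.46.

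Over all 8 mice, Cyp4a32 and Acaa1b varied together, with Pearson's r = 0.85 (exact permutation p = 0.00174, adjusted p = 0.00521) and Spearman's rho = 0.93 (exact permutation p = 0.00174, adjusted p = 0.00521). The test was two-sided and permuted mice within each group, which allows 576 arrangements and no p below 0.00174, and p-values were adjusted by Benjamini-Hochberg over the 3 pairs of genes. Among the 61082 probes, 0.827% had an r as high with Cyp4a32 and 1.20% had one as high with Acaa1b. Cyp4a32 is not among these probes, and its r includes sham mice 1 and 2, where its signal was not well above background. This r was the highest of the 3 pairs here but not under every setting. With normexp it was 0.68, below the 0.93 of Cyp4a31 and Cyp4a32, and both pairs passed (adjusted p of the exact permutation test 0.0104 and 0.0391). Without the mice farthest from the median Cyp4a32 deviation (sham mouse 3 and DJB mouse 3) r was 0.75 (exact permutation p = 0.222, adjusted p = 0.375). The relation did not pass there, but with 36 arrangements of 6 mice the test had little room to pass after adjustment. With any 1 mouse left out r stayed between 0.81 and 0.98 (without sham mouse 3 it was 0.809, beside 0.814 for Cyp4a31 and Cyp4a32). The adjusted p of the exact permutation test was above 0.05 without sham mouse 3 (0.0833), DJB mouse 1 (0.0625), DJB mouse 2 (0.0625) or DJB mouse 3 (0.104). With the same 144 arrangements it stayed under 0.05 without sham mouse 1 (0.0208), sham mouse 2 (0.00694), sham mouse 4 (0.0417) or DJB mouse 4 (0.0208). The adjusted p of a pair also depends on the p-values of the other pairs, so these lists do not show which mice carry the relation. Before adjustment, the exact permutation p was between 0.00694 and 0.0347 with any 1 mouse left out.

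The omega-hydroxylases Cyp4a31 and Cyp4a32, which are neighbours on the chromosome, had r = 0.77 (exact permutation p = 0.0243, adjusted p = 0.0365). By rank they did not pass, with rho = 0.64 (exact permutation p = 0.0868, adjusted p = 0.130). Of the same 61082 probes, 3.69% had an r as high with Cyp4a31 and 2.33% with Cyp4a32. The relation rests in part on DJB mice 2 and 3, the farthest from the median Cyp4a31 deviation, without which r was 0.51 (exact permutation p = 0.25). That p came from 48 arrangements, which left the test little room to pass after adjustment. The adjusted p of this pair by the exact permutation test was above 0.05 without sham mouse 1 (0.0625), sham mouse 3 (0.0833), DJB mouse 1 (0.125), DJB mouse 2 (0.125), DJB mouse 3 (0.167) or DJB mouse 4 (0.104). Before adjustment, the exact permutation p was 0.0417 without sham mouse 1 and 0.0556 to 0.111 without each of the others named. The adjusted p was 0.0521, by the same exact permutation test, when no signal was allowed below the lowest one well above background on its array, which raised sham mouse 1 in Cyp4a32.

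Cyp4a31 and Acaa1b were not shown to vary together, with r = 0.47 (exact permutation p = 0.120, adjusted p = 0.120) and rho = 0.57 (exact permutation p = 0.163, adjusted p = 0.163). An r as high was reached by 20.5% of the same 61082 probes with Cyp4a31 and by 18.0% with Acaa1b. Without DJB mice 2 and 3, the farthest from the median, r was 0.05 (exact permutation p = 0.938). Single mice moved this r both ways. Without DJB mouse 3 it was 0.19 (exact permutation p = 0.493, adjusted p = 0.493). Without sham mouse 2, in which Cyp4a31 was above its group mean and Acaa1b far below, it was 0.95 (exact permutation p = 0.00694, adjusted p = 0.00694, the smallest that the 144 arrangements of 7 mice allow).

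**Figure D4:**
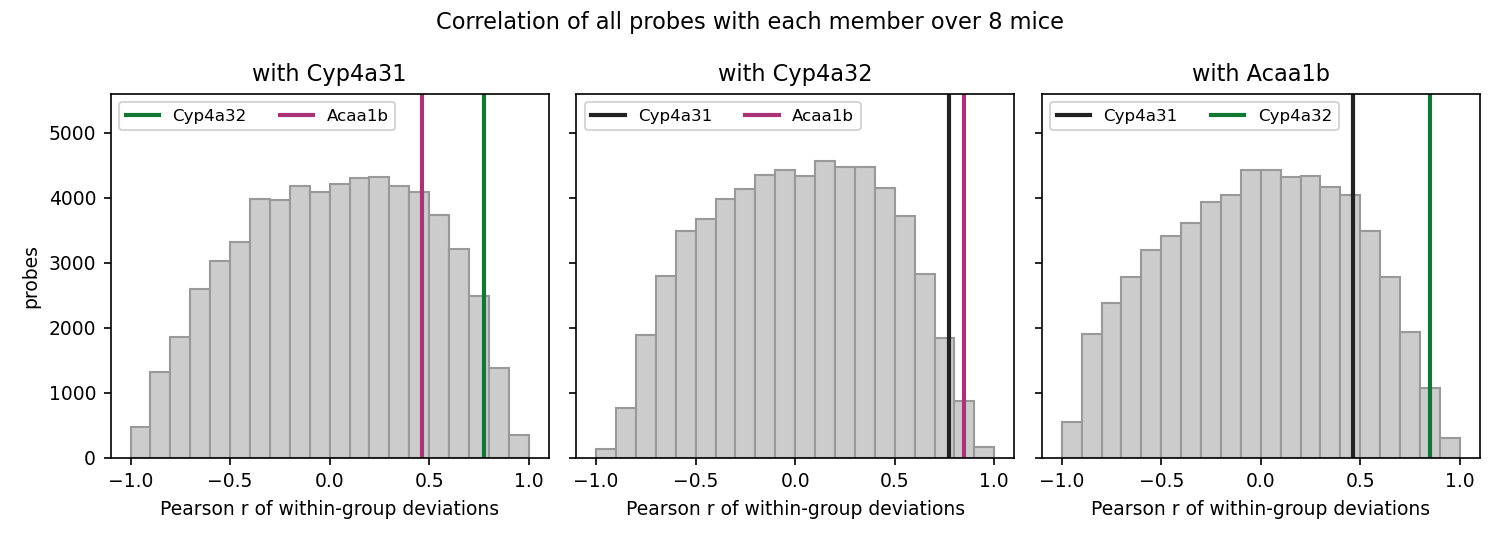
Number of probes (y axis) by their Pearson r with Cyp4a31, Cyp4a32 and Acaa1b (x axis), from within-group deviations over 8 mice, for 61082 probes well above background on all arrays. Vertical lines mark the r of the other members: Cyp4a32 with Acaa1b at 0.85 lies in the upper tail, while Cyp4a31 with Acaa1b at 0.47 lies within the bulk of all probes.

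Among the 19 other named probes that were well above background on all arrays, Cpne5, a calcium-dependent phospholipid-binding copine, had the pattern most like the 3 genes. Likeness was the mean over the 3 genes of r over the 8 mice, a description with no test. It was 0.88 for Cpne5 (r = 0.88 with Cyp4a31, 0.94 with Cyp4a32 and 0.83 with Acaa1b), a value that 3 of the 61082 probes reached. Cpne5 had relative log2 signals of -4.14, -4.71, -3.17 and -3.66 in sham mice 1 to 4, and of 0.89, 0.14, 2.89 and 1.78 in DJB mice 1 to 4. The order of its mice was that of Cyp4a32 and Acaa1b in both groups.

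The next most alike was 1700057G04Rik, with a mean r of 0.80 and the same DJB order, from 3.73 in DJB mouse 3 to -1.55 in DJB mouse 2. The transcript NONMMUT047324 followed with 0.64, then Btg1-ps2 with 0.39 and 1700011H14Rik with 0.02. The last 3 come from the list of transcripts that were lower after DJB. The median of the same measure over the 61082 probes was 0.02.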

How the data were processed

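The authors hybridized ileal RNA of 4 sham and 4 DJB mice to one-colour arrays and extracted them with Agilent Feature Extraction 11.0.1.1 (per the labels). The deposited intensity of each spot was background-subtracted and detrended but not scaled between arrays. The authors also deposited a table of log2 values, whose normalization is not given in the sources used here. Here, control spots and outlier-flagged spots were dropped, the processed intensity was turned into log2 and averaged over the spots of a probe and each array's 75th percentile was subtracted. A probe was well above background on an array if 1 or more spots were. Probes that passed on all arrays of 1 or both groups were fitted with limma 3.58.1 (R 4.3.3). Co-variation was tested with exact permutations (Python 3.11.15). Limma and the permutation test were tested on simulated data.

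The files pair no probe with a gene. A probe was named where the DJB over sham ratio of linear means, computed from the authors' log2 table, matched the fold change listed by the study within a relative error of 1e-06, which held for exactly 1 probe for each of the 3 genes. The names thus rest on the study's own values. The planned pathway lists, cell type markers and protein comparisons needed gene names or sequences and were not analysed here. The rule for named genes took the 3 members and the 5 named probes most like them, and Pla2g4c was added after its values were seen. The members and lists were chosen with earlier results of these data known. Alternatives covered scaling, background correction, spots, filters, blocks, tests and each mouse left out, and a floor for dim signals and co-variation without each mouse were added after seeing the data. Each array held RNA of 1 mouse, and 4 arrays per group limit the precision.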

Additional observations from a re-analysis of the deposited data

How the results depend on the processing

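The differences of Cyp4a31 (3.19 to 3.57) and Acaa1b (3.37 to 3.69) moved by less than the spread between mice under all 9 alternatives of scaling, background, spots and floor. That of Cyp4a32 did so under all but normexp, where it was 1.40. Normexp both started from the unprocessed spot signal and added a constant, and which of these moved the value was not tested. With each mouse left out, the differences were 2.94 to 3.93 for Cyp4a31, 3.12 to 4.21 for Cyp4a32 and 3.17 to 3.92 for Acaa1b. The counts of probes higher and lower after DJB became 399 and 3257 with no scaling, 357 and 679 with normexp, and 14232 and 9324 with no minimum fold. They ranged from 773 to 973 and from 1390 to 1756 with each mouse left out. No pairing of mice by replicate number was seen, although this check cannot exclude it. The deviations of same-numbered mice correlated by -0.02 to 0.01, and with the replicate number as a block the counts were 845 and 1470. For co-variation with each mouse left out, r was 0.55 to 0.90 for Cyp4a31 and Cyp4a32, 0.19 to 0.95 for Cyp4a31 and Acaa1b, and 0.81 to 0.98 for Cyp4a32 and Acaa1b. Without the 2 mice farthest from the median, r was 0.51 for Cyp4a31 and Cyp4a32 and 0.75 for Cyp4a32 and Acaa1b. Neither passed the threshold, but with 48 and 36 arrangements the test had little room to pass it. With the floor, r was 0.78 for Cyp4a31 and Cyp4a32, which also did not pass (exact permutation test, adjusted p = 0.0521). The cause was not tested. Counts over pathway lists and the mean of all probes of a gene were not run, because the probes could not be named. Signal near background limits Cyp4a32 in sham mice.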

Other observations

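Pla2g4c, a cytosolic phospholipase A2 that releases fatty acids from membrane lipids, was also among the listed mRNAs that were higher after DJB, but it varied among mice opposite to Cyp4a31, Cyp4a32 and Acaa1b. It is named after its values were seen, as the least alike of the 19 named probes compared. Its relative log2 signals in DJB mice 1 to 4 were 7.53, 8.05, 3.91 and 5.32, so that DJB mouse 3, the highest for the 3 genes, was the lowest for Pla2g4c, and DJB mouse 2, the lowest for the 3 genes, was the highest. In sham mice 1 to 4 the signals were 0.05, 0.06, -0.82 and -1.38. The correlation of within-group deviations over 8 mice was -0.93 with Cyp4a31, -0.88 with Cyp4a32 and -0.67 with Acaa1b, as a description with no test. A mean r as low, -0.83, was found for 109 of 61082 probes (0.178%).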
